A study of Mus musculus with 6 samples.

Results

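The 43 genes described here act in the G2 phase of the cell cycle and in mitosis. They are a fixed list of cyclins, mitotic kinases, kinetochore, condensin, kinesin, spindle and cytokinesis genes, found by symbol among the 26094 genes of the table, and all 43 were listed and passed the filter on low values. They were followed in 4T1 cells, a mouse mammary carcinoma line a common model of aggressive breast cancer, grown in medium with 10% fetal bovine serum. In the group named Limch1_OE (n = 3 libraries) the cells had been infected with a pLVX-IRES-neo lentivirus carrying mouse Limch1, which encodes an actin-associated regulator of non-muscle myosin II, and in the group named Vector (n = 3 libraries) with the empty virus. In both groups the stable lines were selected with antibiotic from 48 h after infection. The labels do not say how many infections or cultures lie behind the 3 libraries of a group, so p-values measure the spread between libraries, which may be technical.

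Entry into mitosis is driven by the kinase Cdk1 with cyclins A and B, helped by the Polo and Aurora kinases. Condensins and topoisomerase II then compact the chromosomes, kinesins and microtubule-binding proteins build the spindle, and kinetochores couple chromosomes to it under the watch of the spindle checkpoint. The anaphase-promoting complex (APC/C) ends mitosis by marking cyclin B and securin for destruction, and the central spindle then places the furrow that divides the cell. Most of these genes are transcribed together late in the cycle, through the MuvB complex with B-Myb and FoxM1, and are therefore widely read as signs of proliferation. In bulk RNA, fewer cells in G2 or mitosis and less of the mRNA per such cell cannot be told apart.

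The promoters of these genes are shown first, because many genes of the group share promoter letters. The cell cycle genes homology region, with the letters TTTGAA, is bound by MuvB-containing complexes, and CCAAT is bound by the trimeric factor NF-Y. Both were searched on both strands in windows from 250 bases before to 50 bases after the annotated start (RefSeq, GRCm38.p6). Windows were found for 37 of the 43 genes, and none was at hand for Aurkb, Ccna2, Incenp, Kif20a, Smc4 and Tpx2. TTTGAA was present for 29 of the 37 genes and in 17.9% of all 32851 windows. CCAAT was present for 30 of the 37 genes and in 37.4% of all windows, and both stood in the same window for 26 genes and in 6.95% of all windows. The variant TTCGAA was present for 3 genes and in 1.56% of all windows. TTCGAA reads the same on both strands, and it cannot match at the same place as TTTGAA. A match is a description of letters and not a measured binding site.

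Of the genes with a window that fell in Limch1_OE (see the values that follow), 7 of 9 held TTTGAA and 7 of 9 held CCAAT. Of those that rose, 2 of 3 held TTTGAA and 3 of 3 CCAAT, and of those that did not pass the test 20 of 25 held each. Genes that fell and genes that rose are shown for comparison, each from 130 bases before to 20 bases after the start, 5′ to 3′ along the gene, with matches to the 3 motifs on either strand in capitals (TTCAAA and ATTGG are matches on the other strand). Ccnb2, Cdc20, Ckap2l and Birc5 were lower in Limch1_OE, and Bub1, Mki67 and Ckap2 were higher.
Ccnb2: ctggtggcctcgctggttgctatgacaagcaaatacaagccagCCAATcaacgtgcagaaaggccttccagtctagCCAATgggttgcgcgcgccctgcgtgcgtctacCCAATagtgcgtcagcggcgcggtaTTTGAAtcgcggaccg
Cdc20: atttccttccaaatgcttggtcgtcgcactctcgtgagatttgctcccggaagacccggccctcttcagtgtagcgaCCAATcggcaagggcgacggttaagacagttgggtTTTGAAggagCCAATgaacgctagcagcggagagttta
Ckap2l: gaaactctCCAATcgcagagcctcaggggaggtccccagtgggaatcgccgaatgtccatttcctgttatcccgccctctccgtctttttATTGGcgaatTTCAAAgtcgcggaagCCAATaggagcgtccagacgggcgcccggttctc
Birc5: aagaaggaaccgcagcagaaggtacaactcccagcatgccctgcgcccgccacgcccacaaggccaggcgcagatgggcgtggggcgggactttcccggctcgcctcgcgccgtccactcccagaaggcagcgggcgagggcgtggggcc
Bub1: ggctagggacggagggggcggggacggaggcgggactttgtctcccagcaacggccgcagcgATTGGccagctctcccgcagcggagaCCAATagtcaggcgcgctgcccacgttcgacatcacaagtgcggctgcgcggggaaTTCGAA
Mki67: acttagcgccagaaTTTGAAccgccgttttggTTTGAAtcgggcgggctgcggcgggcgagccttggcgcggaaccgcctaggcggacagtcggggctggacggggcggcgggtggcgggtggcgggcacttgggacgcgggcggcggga
Ckap2: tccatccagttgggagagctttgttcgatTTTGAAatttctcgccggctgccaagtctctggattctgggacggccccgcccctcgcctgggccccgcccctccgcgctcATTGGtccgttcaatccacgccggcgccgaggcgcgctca
The windows lie at chr9:70421535-70421684, minus strand (Ccnb2), chr4:118437324-118437473, minus strand (Cdc20), chr2:129297193-129297342, minus strand (Ckap2l), chr11:117849107-117849256, plus strand (Birc5), chr2:127831840-127831989, minus strand (Bub1), chr7:135716360-135716509, minus strand (Mki67) and chr8:22185800-22185949, minus strand (Ckap2). In Ccnb2 the 3 CCAAT matches begin at positions -87, -54 and -21 and a TTTGAA match begins at position 5, counted from the start with no position 0. Bub1, which rose, has a pair of CCAAT matches at -68 and -42 and the variant TTCGAA at position 15. In Mki67, which also rose, TTTGAA matches begin at -116 and -98, and its 3 CCAAT matches lie farther upstream than the stretch shown. The Birc5 window held no match to any of the 3 motifs. Matches were thus found in genes that moved in opposite directions.

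Values are FPKM, fragment counts scaled for transcript length and library size, summed over the transcripts listed for each gene. The depth behind them is unknown, so errors are given as the SD between the 3 libraries in a group. The overexpressed gene was at 23.96, 23.31 and 25.69 FPKM in the Limch1_OE libraries (replicates 1 to 3) but at 0.25, 0.15 and 0.1 FPKM with empty vector, which matches the labels. All 6 epithelial markers examined were present, with library values between 28.41 and 637.27 FPKM. Of those, Epcam and Cdh1 fell and Krt7 rose. Among markers of leukocytes, fibroblasts and endothelium that could be matched, Cd74 rose, between 33.09 and 47.62 FPKM over the libraries, and the remaining 10 never exceeded 0.36 FPKM. Differences were tested with limma on log2(FPKM + 1), Limch1_OE minus Vector, with Benjamini-Hochberg adjustment over the 11842 genes that reached 1 FPKM in at least 3 libraries and a threshold of 0.05. "Fell" and "rose" are used for genes past that threshold, and every fold change called log2 is on the log2(FPKM + 1) scale, which understates changes of low genes.

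In Limch1_OE, 11 of the 43 mitotic genes fell, 3 rose and 29 missed the threshold. Those that fell were the apoptosis inhibitor and passenger protein gene Birc5, the cyclin genes Ccnb2, Ccnb1 and Ccna2, the kinase genes Plk1 and Aurka, the kinesin genes Kif20a and Kif2c, the condensin gene Ncapd2, the spindle gene Ckap2l and the APC/C activator gene Cdc20. Those that rose were Bub1, Ckap2 and Mki67. Over all tested genes, 14.4% fell and 20.2% rose, against 25.6% and 6.98% of the members. Apart from Birc5, which was 30.1% lower, the members that fell did so by 13.1% to 21.6% of the Vector mean. The median log2 fold change of the 43 genes was -0.08, beside 0.04 over all tested genes.

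The libraries of the groups did not overlap for 14 members that were lower in Limch1_OE and 5 that were higher, while 20.5% and 28.6% of all tested genes stood apart in these directions. For each of the 14 genes past the threshold an exact permutation test (two-sided) on mean FPKM returned p = 0.1, which is the lower limit for 3 against 3. With a trimmed mean of M values as the scaling, 17 members fell and 2 rose. That scaling also turned the balance over all genes, from 58.3% of calls higher to 39.2% higher, and taking only the top transcript of a gene gave 49.9%.

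**Figure D1:**
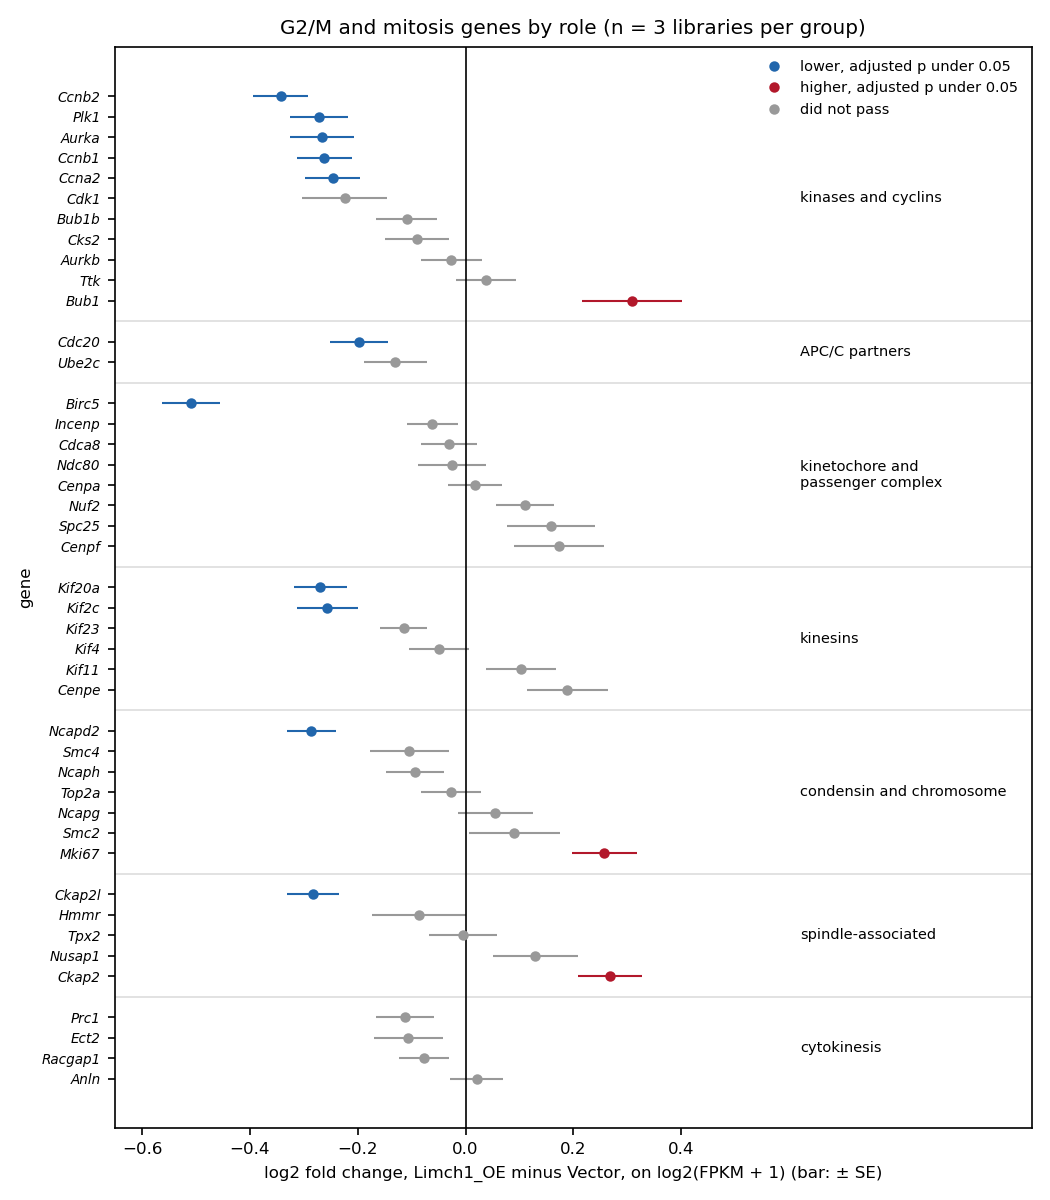
The log2 fold change (Limch1_OE minus Vector, on log2(FPKM + 1)) of each of the 43 genes is plotted on the x axis, grouped by role, with bars of ± 1 SE from the limma fit. Of the 11 blue points that passed as lower Birc5 lies farthest left at -0.51, and the 3 red points that passed as higher lie between 0.26 and 0.31.

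Among cyclins and kinases, 5 of 11 fell and 1 rose, beside 14.4% lower and 20.2% higher over all tested genes. Ccnb2 encodes cyclin B2, a partner of Cdk1 that is found largely at the Golgi (ENSMUSG00000032218, mm10 chromosome 9, 70407692 to 70421547, minus strand). It was at 35.47, 37.56 and 35.09 FPKM in Limch1_OE, against 45.5, 48.13 and 44.33 in Vector. The highest Limch1_OE library was well below the lowest Vector library, and the difference was -0.34 on the log2 scale (SE 0.05, limma adjusted p = 0.00149). Ccnb1, the cyclin B1 gene required for mitotic entry (chromosome 13, 100778650 to 100786570, minus strand), was at 40.53, 41.32 and 38.99 FPKM in Limch1_OE, against 47.83, 51.07 and 46.65 in Vector. It fell by 0.26 on the log2 scale (SE 0.05, limma adjusted p = 0.00518), again without overlap. With its most abundant transcript alone, Ccnb1 did not pass (-0.24, limma adjusted p = 0.101).

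Ccna2, the cyclin A2 gene that serves both S phase and mitotic entry (chromosome 3, 36564865 to 36572150, minus strand), had the highest level among the cyclin and kinase genes. It was at 83.75, 82.17 and 75.6 FPKM in Limch1_OE, against 97.77, 95.93 and 93.14 in Vector, and fell by 0.25 (SE 0.05, limma adjusted p = 0.00697). The 3 cyclin genes thus differed from Vector by similar amounts, between 15.8% and 21.6%. Their partner Cdk1 was at 42.17, 42.54 and 40.27 FPKM in Limch1_OE, against 43.82, 55.38 and 47.9 in Vector. The groups did not overlap, but the Vector libraries were spread widely, and the log2 fold change of -0.22 did not pass (SE 0.08, limma adjusted p = 0.0550). Without Vector replicate 1, the lowest of its group, Cdk1 passed at -0.30 (limma adjusted p = 0.0214). It also passed with the trimmed mean of M values (-0.30, limma adjusted p = 0.0175). Cks2, a small Cdk-binding protein gene, differed by -0.09 (limma adjusted p = 0.276).

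Plk1, the Polo-like kinase gene (chromosome 7, 122159439 to 122169873, plus strand), was at 38.62, 41.53 and 43.57 FPKM in Limch1_OE, against 50.1, 50.78 and 49.02 in Vector. Its Vector libraries lay close together and above all Limch1_OE libraries, and it fell by 0.27 (SE 0.05, limma adjusted p = 0.00543). Aurka, the Aurora kinase of the spindle poles (chromosome 2, 172356190 to 172370535, minus strand), was at 33.07, 37.85 and 36.06 FPKM in Limch1_OE, against 43.15, 44.51 and 41.44 in Vector, and fell by 0.27 (SE 0.06, limma adjusted p = 0.00934). Aurkb, the Aurora kinase of the chromosomal passenger complex, was at 51.39, 54.8 and 54.67 FPKM in Limch1_OE, against 57.47, 55.51 and 51.04 in Vector. Its groups overlapped, and it differed by -0.03 (limma adjusted p = 0.747). A test of the difference between Aurka and Aurkb was not made.

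Of the spindle checkpoint kinase genes Bub1, Bub1b and Ttk, 1 passed the test as higher, beside 20.2% of all tested genes. Bub1, whose kinase marks centromeric chromatin (chromosome 2, 127801122 to 127831865, minus strand), was at 30.5, 27.31 and 23.4 FPKM in Limch1_OE, against 19.96, 22.08 and 22.68 in Vector. Limch1_OE replicate 1 was the highest and replicate 3 lay close to the top of the Vector range. On the log2 scale Bub1 stood 0.31 higher (SE 0.09, limma adjusted p = 0.0307), the largest increase among the 43 genes. The call for Bub1 ended without Limch1_OE replicate 1 (0.22, limma adjusted p = 0.0769), Limch1_OE replicate 2 (limma adjusted p = 0.0859), Vector replicate 1 (limma adjusted p = 0.102) or Vector replicate 2 (limma adjusted p = 0.0616). The same held under trimmed mean of M values scaling (limma adjusted p = 0.0644), with no filter on low values (0.109), with the most abundant transcript (0.116) and with the replicate block (0.0533). Its relative Bub1b, the BubR1 gene of the checkpoint complex, differed by -0.11 (limma adjusted p = 0.166), and Ttk, the Mps1 kinase gene that starts checkpoint signalling, by 0.04 (limma adjusted p = 0.628). The differences of Bub1 from Bub1b and Ttk were not tested.

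**Figure D2:**
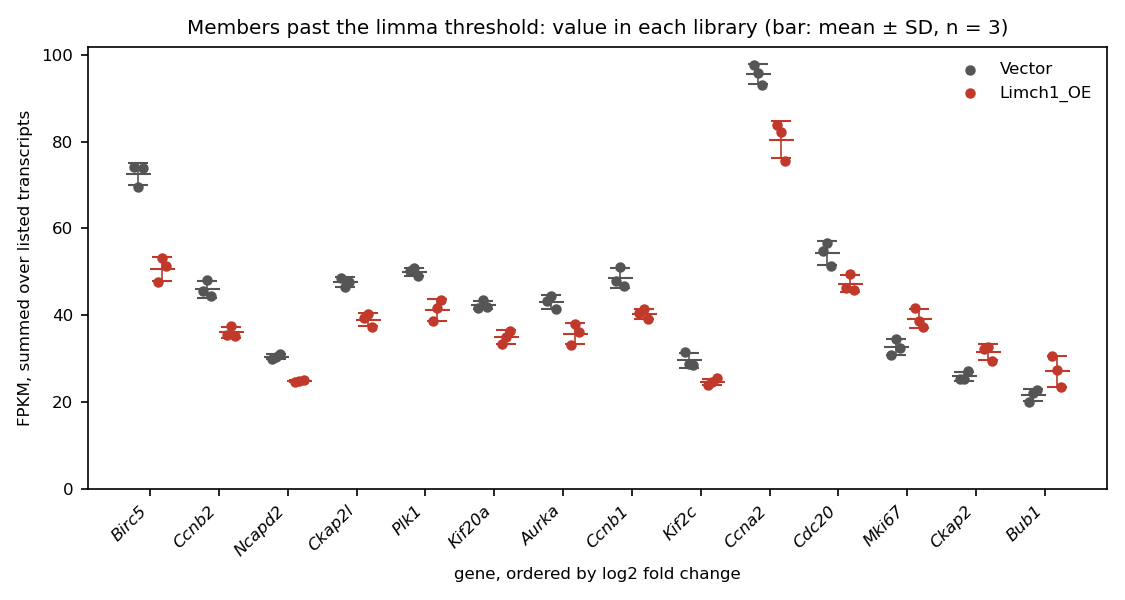
FPKM in each library is plotted on the y axis for the 14 genes past the threshold, ordered by log2 fold change, with points for single libraries and bars for the group mean ± SD (n = 3). From Birc5 to Cdc20 all Limch1_OE points lie below the Vector points of the same gene, and for Mki67, Ckap2 and Bub1 they lie above.

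Of both APC/C partners on the list, 1 fell, beside 14.4% of all tested genes. Cdc20, the activator that the checkpoint restrains (chromosome 4, 118432901 to 118437352, minus strand), was at 46.27, 49.44 and 45.86 FPKM in Limch1_OE, against 54.85, 56.71 and 51.31 in Vector. It fell by 0.20 (SE 0.05, limma adjusted p = 0.0222), the smallest decrease among the 11. The call for Cdc20 ended without Limch1_OE replicate 3 (limma adjusted p = 0.0577), Vector replicate 1 (0.0741) or Vector replicate 2 (0.0817), with quantile normalization (0.0660), with no filter on low values (0.0541) and with the most abundant transcript (0.0635). Ube2c, the ubiquitin-conjugating enzyme of the APC/C, had the second highest level of the 43 genes, 100.88, 116.03 and 109.93 FPKM in Limch1_OE, against 123.44, 118.82 and 115.33 in Vector. The highest Limch1_OE library exceeded the lowest Vector library, and Ube2c did not pass (log2 fold change -0.13, SE 0.06, limma adjusted p = 0.118).

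Birc5 showed the largest difference of the 43 genes. It encodes survivin, which targets the chromosomal passenger complex to centromeres and inhibits apoptosis (ENSMUSG00000017716, chromosome 11, 117849251 to 117855743, plus strand). It was at 47.73, 53.14 and 51.31 FPKM in Limch1_OE, against 74.06, 69.66 and 73.95 in Vector. The groups were far apart relative to the spread within them, with a difference of -0.51 on the log2 scale (SE 0.05, limma adjusted p = 2.04e-04). The other members of that complex overlapped between groups. Incenp, its scaffold and the most abundant gene of the kinetochore and passenger set, was at 66.29, 70.89 and 70.78 FPKM in Limch1_OE, against 70, 73.82 and 73.26 in Vector (log2 fold change -0.06, SE 0.05, limma adjusted p = 0.351). Cdca8, the borealin gene, differed by -0.03 (limma adjusted p = 0.679). Between Birc5 and Cdca8, a pair picked after the values were seen, the FPKM ratio averaged 0.840 ± 0.0228 with Limch1 and 1.18 ± 0.0485 without (SD, n = 3 each).

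Of the kinetochore genes Cenpa, Ndc80, Nuf2, Spc25 and Cenpf, none passed the test. Over all tested genes the shares were 14.4% lower and 20.2% higher. Cenpa, the centromeric histone H3 variant, differed by 0.02, and Ndc80, the microtubule-binding subunit of the outer kinetochore, by -0.03. Nuf2 and Spc25, partners of Ndc80 in its complex, differed by 0.11 and 0.16, and Cenpf, a large outer kinetochore protein, by 0.17. Their limma adjusted p-values lay between 0.141 (Cenpf) and 0.820 (Cenpa). Nuf2 was at 24.54, 23.92 and 24.32 FPKM in Limch1_OE, against 23.38, 21.05 and 22.84 in Vector, without overlap. Without Vector replicate 3, Spc25 passed as higher (0.25, limma adjusted p = 0.0328).

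Of the 6 kinesin motors 2 fell, beside 14.4% of all tested genes. Kif20a, the MKLP2 motor that carries passenger proteins to the central spindle, was at 33.39, 35.01 and 36.45 FPKM in Limch1_OE, against 41.69, 43.43 and 41.79 in Vector. It fell by 0.27 (SE 0.05, limma adjusted p = 0.00407), and with its most abundant transcript alone it stood at -0.56 without passing (limma adjusted p = 0.0775). Kif2c, the MCAK microtubule depolymerase (chromosome 4, 117159639 to 117182639, minus strand), was at 23.88, 24.51 and 25.4 FPKM in Limch1_OE, against 31.6, 28.7 and 28.5 in Vector, and fell by 0.26 (SE 0.06, limma adjusted p = 0.00891). For both motors every Limch1_OE library was below every Vector library.

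Kif23, the MKLP1 motor of centralspindlin and the most abundant kinesin here, was at 38.93, 38.93 and 37.62 FPKM in Limch1_OE, against 42.29, 41.6 and 41.41 in Vector. The groups did not overlap, but the log2 fold change of -0.11 did not pass (SE 0.04, limma adjusted p = 0.0700). Kif23 passed with the trimmed mean of M values (limma adjusted p = 0.0128), with its most abundant transcript (0.0351) and after removal of a trend on GC content (0.0325). The chromokinesin gene Kif4 differed by -0.05, the bipolar spindle motor Kif11 by 0.10 and the kinetochore motor Cenpe by 0.19 (limma adjusted p = 0.531, 0.251 and 0.0849). Without Limch1_OE replicate 3, Cenpe passed as higher (0.25, limma adjusted p = 0.0356).

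Among condensin and chromosome genes, 1 of 7 fell and 1 rose, beside 14.4% lower and 20.2% higher over all tested genes. Ncapd2, a HEAT-repeat subunit of condensin I (chromosome 6, 125168007 to 125191701, minus strand), was at 24.47, 24.91 and 24.93 FPKM in Limch1_OE, against 29.77, 30.44 and 31.07 in Vector. Its libraries agreed closely within each group, and it fell by 0.29 (SE 0.05, limma adjusted p = 0.00200). Other condensin I subunits did not pass, with log2 fold changes of -0.10 for Smc4, -0.09 for Ncaph, 0.06 for Ncapg and 0.09 for Smc2 (limma adjusted p between 0.204 and 0.572). Smc4 passed as lower after removal of a trend on GC content (-0.22, limma adjusted p = 0.00451). Top2a, the DNA topoisomerase that untangles sister chromatids, had the highest level of all 43 genes. It was at 170.76, 164.09 and 151.28 FPKM in Limch1_OE, against 159.92, 164.48 and 170.58 in Vector, overlapping fully (log2 fold change -0.03, SE 0.06, limma adjusted p = 0.736).

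Mki67, which encodes the Ki-67 antigen that coats mitotic chromosomes and serves as a marker of cycling cells (chromosome 7, 135689784 to 135716361, minus strand), rose. It was at 41.55, 38.7 and 37.25 FPKM in Limch1_OE, against 30.83, 34.48 and 32.51 in Vector. The groups did not overlap, and Mki67 was up by 0.26 on the log2 scale (SE 0.06, limma adjusted p = 0.0116). Mki67 and the cyclin genes therefore moved in opposite directions in the same libraries.

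Of 5 spindle-associated genes 1 fell and 1 rose, beside 14.4% lower and 20.2% higher over all tested genes. The gene that fell and the gene that rose are a pair of related genes. Ckap2l, which encodes the spindle protein radmis (chromosome 2, 129268210 to 129297212, minus strand), was at 39.31, 40.24 and 37.35 FPKM in Limch1_OE, against 48.66, 46.46 and 47.69 in Vector, and fell by 0.28 (SE 0.05, limma adjusted p = 0.00270). Ckap2, a promoter of spindle microtubule growth (chromosome 8, 22168160 to 22185819, minus strand), was at 32.25, 32.76 and 29.31 FPKM in Limch1_OE, against 25.25, 25.37 and 27.15 in Vector, and rose by 0.27 (SE 0.06, limma adjusted p = 0.00872). The ratio of Ckap2 to Ckap2l, picked after the values were seen, was 0.806 ± 0.0190 with Limch1 and 0.545 ± 0.0252 without it (SD, n = 3 each). Tpx2, which activates Aurora A on spindle microtubules, was at 45.43, 51.55 and 51.01 FPKM in Limch1_OE, against 48.37, 47.67 and 52.32 in Vector (limma adjusted p = 0.962). The hyaluronan receptor and spindle gene Hmmr differed by -0.09 and the microtubule bundler Nusap1 by 0.13 (limma adjusted p = 0.473 and 0.233). Nusap1 passed as higher without Limch1_OE replicate 3 (0.21, limma adjusted p = 0.0405).

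None of the 4 cytokinesis genes passed, beside 14.4% lower and 20.2% higher over all tested genes. Anln, the anillin scaffold of the contractile ring and the most abundant of them, was at 118.68, 114.17 and 107.38 FPKM in Limch1_OE, against 110.39, 113.28 and 111.42 in Vector (log2 fold change 0.02, SE 0.05, limma adjusted p = 0.772). The central spindle bundler Prc1 differed by -0.11, the RhoA exchange factor Ect2 by -0.11 and its activator Racgap1 by -0.08 (limma adjusted p of at least 0.139). Ect2 passed as lower after removal of a trend on GC content (-0.20, limma adjusted p = 0.00589). Prc1, Racgap1 and Bub1b passed as lower with the trimmed mean of M values, as did Ube2c.

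The table lists 240 of the 261 annotated transcripts of the 43 genes, and for 26 genes a single transcript carried at least 90% of the FPKM. Tested by transcript with limma over 19905 transcripts, 8 of 87 tested member transcripts fell and 1 rose, beside 4.12% lower and 3.12% higher over all tested transcripts. Those that fell were the main transcripts of Birc5, Aurka, Ccna2, Ccnb2, Ckap2l, Ncapd2 and Plk1 and Racgap1-213. With each library left out in turn, 1 or 2 fell and at most 1 rose.

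The transcript that rose was Birc5-202, beside a fall of Birc5-201. Birc5-201 (4 exons, 947 nt, coding 140 codons) is the principal form, and Birc5-202 (3 exons, 3334 nt, coding 121 codons) is longer as an RNA and shorter as a protein. Birc5-201 was at 40.79, 44.64 and 42.79 FPKM in Limch1_OE, against 69.45, 64.86 and 70.51 in Vector (log2 fold change -0.66, SE 0.05, limma adjusted p = 0.00295). Birc5-202 was at 6.94, 8.5 and 8.52 FPKM in Limch1_OE, against 4.61, 4.8 and 3.44 in Vector (log2 fold change 0.77, SE 0.15, limma adjusted p = 0.0397). The groups did not overlap for either transcript, and Birc5-202 took 15.7 ± 1.06% of the gene's FPKM with Limch1, against 5.92 ± 1.15% without (SD, n = 3 each, exact permutation p = 0.1). The call for Birc5-202 held under 5 of 14 alternatives and that for Birc5-201 under 13. Leaving out any single library ended the call of Birc5-202, with limma adjusted p-values between 0.0646 and 0.126, while its log2 fold change stayed between 0.63 and 0.89 over the 14 alternatives. How fragments shared by the transcripts were divided is not given in the sources used here.

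**Figure D3:**
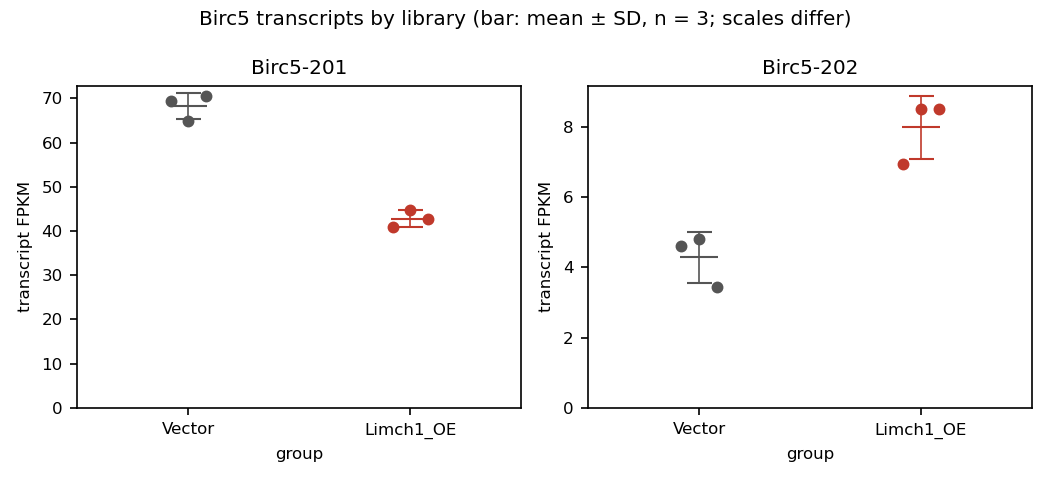
Transcript FPKM of Birc5-201 (left) and Birc5-202 (right) is plotted on the y axis for each library, on scales that differ, with bars for the mean ± SD (n = 3). Birc5-201 averages 68.3 in Vector and 42.7 in Limch1_OE, and Birc5-202 averages 4.28 and 7.99.

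In 8 genes (Cenpa, Nuf2, Spc25, Smc4, Tpx2, Ect2, Racgap1 and Prc1) the leading transcript was not the same in all libraries. Prc1-206, for instance, was at 46.91, 50.02 and 13.19 FPKM in Limch1_OE, against 59.09, 11.07 and 51.69 in Vector. The sum for Prc1 varied less, from 66.85 to 75.29 FPKM in Limch1_OE and from 74.15 to 77.16 in Vector. Not all sums were that even, and that of Smc4 ran from 46.88 to 57.01 FPKM within Limch1_OE. For Aurka, Aurka-203 was at 17.32, 19.38 and 18.39 FPKM in Limch1_OE, against 25.42, 39.37 and 34.62 in Vector. It fell (log2 fold change -0.80, limma adjusted p = 0.0477), a call that held under 6 of 14 alternatives. Its share of the gene's FPKM was uneven in Vector, at 58.9%, 88.5% and 83.5%, and lay between 51.0% and 52.4% in Limch1_OE. In Vector replicate 1, Aurka-202 and Aurka-201 were at 9.83 and 7.84 FPKM, against 8.1 to 9.29 and 7.52 to 9.94 in Limch1_OE. Aurka-201 and Aurka-202 differed by 0.78 and 0.94 without passing (limma adjusted p = 0.205 and 0.304). For Incenp 71.5% of the FPKM belonged to Incenp-209, which is annotated as a retained-intron transcript, so its gene sum is mostly not of the coding form. Incenp-201, the principal coding form, was at 12.21, 14.29 and 15.83 FPKM in Limch1_OE, against 14.63, 13.39 and 14.64 in Vector. For Cenpa the coding form Cenpa-205 held 25.8% of the FPKM.

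GC content, averaged over transcripts by FPKM, had a median of 42.6% in the 3 genes that rose, 50.3% in the 11 that fell and 44.9% in the 29 that did not pass, beside 50.1% over all tested genes. The ranges of the genes that rose (41.0% to 46.6%) and fell (44.0% to 56.0%) overlapped, and the difference was not tested. The Spearman correlation of log2 fold change across the 43 genes was -0.56 with GC content, 0.33 with transcript length and -0.44 with mean FPKM. Over 11831 tested genes these were -0.12, 0.01 and -0.12. These are descriptions across genes that share the same 6 libraries. Libraries of the same group also differed along GC content. The deviation of Limch1_OE replicate 1 from its group mean correlated with GC content at -0.82 across the 43 genes, and that of Limch1_OE replicate 3 at 0.76. Over all tested genes these were -0.48 and 0.43. After removal of a trend on GC content in each library, an alternative chosen after the data were seen, all 14 calls held, with Bub1 at 0.22, and 14 members fell and 3 rose. Without Limch1_OE replicate 1, 11 fell and 2 rose.

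**Figure D4:**
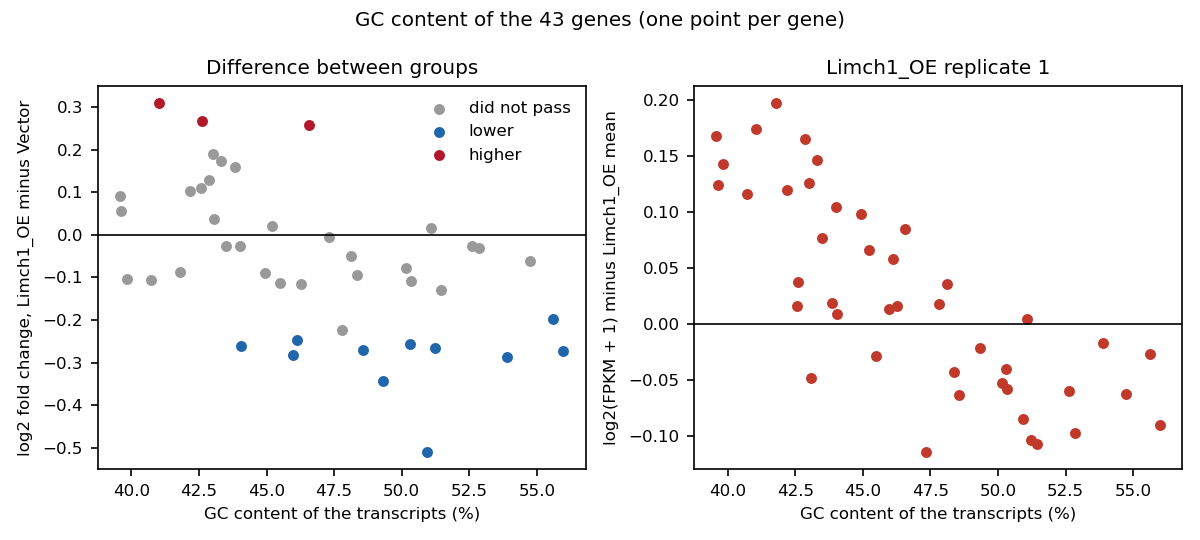
Each point is a member gene, with the GC content of its transcripts (percent) on the x axis. The left panel shows the log2 fold change between groups, where the 3 genes that rose lie below 47% GC, and the right panel shows the deviation of Limch1_OE replicate 1 from the Limch1_OE mean on log2(FPKM + 1), which slopes downward (Spearman -0.82).

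Summed FPKM of the 43 genes was 1837, 1862 and 1772 across replicates 1 to 3 of Limch1_OE, against 1944, 1958 and 1947 across those of Vector. This is 0.42% to 0.44% of all FPKM with Limch1 and 0.47% in each library without. The libraries of each group lay together and the groups did not overlap. Limch1_OE replicate 3 was the lowest of all 6 libraries for 17 members and replicate 1 for 13, although replicate 1 was also the highest of all 6 for 13 members. Leaving out Limch1_OE replicate 3 gave 10 members lower and 5 higher, with Cenpe and Nusap1 joining those that rose. In that fit 58.9% of the calls over all genes were higher.

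A wider set of 142 other mitosis genes, listed by role with earlier results of these data known, was tested in the same fit. Of these 31 fell, 17 rose and 94 missed the threshold, with a median log2 fold change of -0.04, beside 14.4% lower and 20.2% higher over all tested genes. Without Vector replicate 2 these counts were 21 lower and 10 higher, with the top transcript of each gene 20 and 7, and with no filter on low values 22 and 11. Their log2 fold changes also correlated with GC content (Spearman -0.42), and after removal of a trend on GC content 39 fell and 15 rose. With the trimmed mean of M values 44 fell and 10 rose.

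Among 18 genes listed as transcriptional regulators of the cell cycle, 3 fell and 3 rose, beside 14.4% and 20.2% of all tested genes. This list also holds Cdkn1a, an inhibitor of the cell cycle and 1 of the 3 that fell. With the trimmed mean of M values 5 fell and 2 rose, after removal of a trend on GC content 5 and 4, and with the top transcript 3 and 1. Foxm1, the forkhead activator of late cell cycle genes, was at 41.68, 44.56 and 43.72 FPKM in Limch1_OE, against 52.88, 55.03 and 46.28 in Vector. It fell by 0.24 (SE 0.07, limma adjusted p = 0.0249), and the call held under 13 of 17 alternatives, ending with no filter on low values and without Limch1_OE replicate 1, Vector replicate 1 or Vector replicate 2. Mybl2, the B-Myb gene, was at 30.47, 33.16 and 34.76 FPKM in Limch1_OE, against 35.02, 36.82 and 37.09 in Vector, and differed by -0.14 (limma adjusted p = 0.0873). The cell cycle inhibitor gene Cdkn1a (p21) fell by 0.37 and the pocket protein gene Rbl1 (p107) by 0.24. Its relative Rbl2 (p130) rose by 0.25, the NF-Y subunit gene Nfya by 0.28 and the MuvB subunit gene Rbbp4 by 0.34. The call for Rbl2 held under 10 of 17 alternatives, and those for Cdkn1a, Rbl1 and Rbbp4 under all 17. That for Nfya ended only with the most abundant transcript (limma adjusted p = 0.220). The MuvB genes Lin9, Lin37, Lin52 and Lin54 differed by -0.04, -0.05, 0.02 and -0.18, and E2f1, E2f4, Tfdp1, Rb1, Nfyb, Nfyc and Trp53 by between -0.12 and 0.11, and none of these passed.

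Of 23 genes of mitotic entry, 4 fell and 2 rose, beside 14.4% lower and 20.2% higher over all tested genes. These counts were 2 and 2 without Vector replicate 1, 5 and 1 without Limch1_OE replicate 1, and 4 and 1 without Vector replicate 2. They were 7 and 1 with the trimmed mean of M values, 7 and 2 after removal of a trend on GC content, 2 and 1 with the top transcript, and 3 and 1 with no filter on low values. The lowest were the kinase gene Melk (-0.30), the cyclin F gene Ccnf (-0.29) and the phosphatase gene Ppp1ca (-0.25). Those that rose were Ppp1cb (0.33), another catalytic subunit of protein phosphatase 1, and Arpp19 (0.32), an inhibitor of PP2A. The calls for Ppp1ca and Arpp19 held under 13 and 12 of 17 alternatives, and those for Melk, Ccnf and Ppp1cb under all 17.

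Of 31 APC/C, cohesin and separase genes, 5 fell and 8 rose, beside 14.4% lower and 20.2% higher over all tested genes. Left-out libraries moved these counts to 2 and 6 (Limch1_OE replicate 2), 2 and 5 (Vector replicate 2), 3 and 8 (Limch1_OE replicate 1), 3 and 7 (Vector replicate 3) or 5 and 5 (Vector replicate 1). They were 5 and 5 with the trimmed mean of M values, 3 and 3 with the top transcript, 2 and 6 with no filter on low values and 2 and 7 without the intensity trend. The lowest were Ube2s (-0.49), the chain-extending enzyme of the APC/C, the securin gene Pttg1 (-0.42) and the APC/C inhibitor gene Fbxo5 (-0.41). Ube2s was at 86.87, 62.27 and 56.47 FPKM in Limch1_OE, against 77.41, 108.06 and 102.76 in Vector. Its groups overlapped (limma adjusted p = 0.0469). Those highest were the cohesin gene Stag2 (0.43), the cohesin loader gene Nipbl (0.41) and the cohesin regulator gene Pds5a (0.41). Stag2 was at 28.3, 23.15 and 21.25 FPKM in Limch1_OE, against 16.99, 17.54 and 18.4 in Vector, with Limch1_OE replicate 1 the highest. After removal of a trend on GC content 4 of these genes fell and 6 rose. The call for Ube2s held under 6 of 17 alternatives and that for Pds5a under 15. The calls for Pttg1 and Stag2 ended only with the most abundant transcript, and those for Fbxo5 and Nipbl held under all 17.

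Of 34 kinetochore and checkpoint genes, 10 fell and 2 rose, beside 14.4% lower and 20.2% higher over all tested genes. Without Limch1_OE replicate 1 or 2 or any Vector library 8 or 9 fell and 1 rose. The lowest were Cenph (-0.46), of the inner kinetochore, Pmf1 (-0.45), of the Mis12 complex, and the checkpoint adaptor Zwint (-0.37). Zwint was at 73.85, 75.43 and 74.62 FPKM in Limch1_OE, against 94.71, 93.72 and 102.9 in Vector, far apart. Cenpc1, the inner kinetochore protein that binds Cenpa nucleosomes, rose by 0.42, and the outer scaffold gene Knl1 by 0.33. The calls of these 5 genes held under all 17 alternatives except that of Knl1, which held under 7 of 16. Of 36 further condensin, kinesin, spindle and cytokinesis genes, 9 fell and 2 rose, beside 14.4% and 20.2% of all tested genes. Without Limch1_OE replicate 2 or Vector replicate 2 the counts were 5 and 1, and without Vector replicate 1 or 3 they were 6 and 1. They were 4 and 0 with the top transcript, 6 and 1 with no filter on low values or no intensity trend, 14 and 1 with the trimmed mean of M values, and 9 and 4 after removal of a trend on length. Gtse1 (-0.42), which stabilises spindle microtubules, Iqgap3 (-0.30) and Troap (-0.26) were lowest, and Kif20b (0.31) and Arhgap11a (0.25) rose. Troap was at 11.81, 12.93 and 11.67 FPKM in Limch1_OE, against 12.81, 15.29 and 16.41 in Vector, with overlap (limma adjusted p = 0.0474). The calls for Troap, Kif20b and Arhgap11a held under 9, 6 and 15 of 17 alternatives, and those for Gtse1 and Iqgap3 under all 17.

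**Figure D5:**
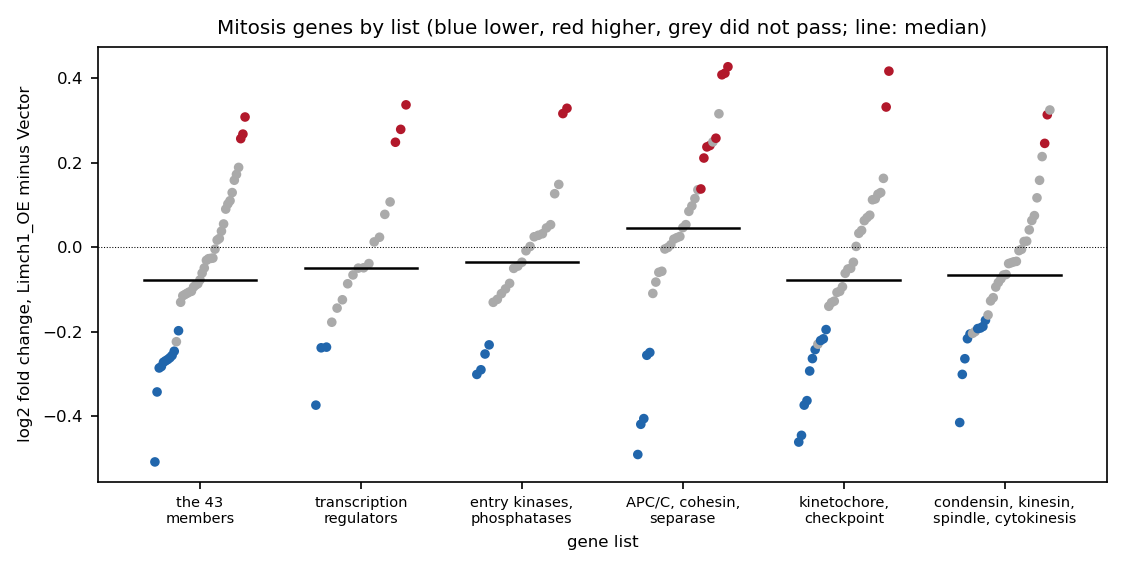
The log2 fold change of each gene (y axis, Limch1_OE minus Vector) is plotted for the 43 genes and 5 lists of other mitosis genes (x axis), in rank order within a list, with a line at the median. Medians lie between -0.08 and 0.05, and each list holds genes that passed in both directions.

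For comparison, 26 of 48 genes of G1/S and replication fell and 1 rose in the same fit, with a median log2 fold change of -0.18. With the top transcript 17 fell and 1 rose, and with quantile normalization 22 and 2. The corresponding values for the 43 mitotic genes were 11, 3 and -0.08, and the difference between these lists was not tested. Over all tested genes 14.4% fell and 20.2% rose in the main fit, where 58.3% of calls were higher. With the top transcript 49.9% of all calls were higher, and with quantile normalization 57.6%.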

How the data were processed

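Gene expression was measured by RNA sequencing in 6 libraries of 4T1 cells, grouped by sample title (3 Limch1_OE, 3 Vector). In the sample characteristics the number in the genotype of the overexpressing libraries, and in the cell line name of all libraries, changes from sample to sample. The titles were therefore used, and the labels do not explain this numbering. The authors deposited FPKM per transcript. Per the submitters' processing notes, StringTie 2.2.1, featureCounts 2.0.1, STAR 2.7.10 and fastp 0.23.2 were used with mm10, with no roles named. Their annotation release and strand setting are not stated. No counts were used, so depth is unknown.

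The 77865 listed transcripts were summed per gene and named with GENCODE M21 (mm10), which matched 26033 of 26094 identifiers. The 11842 genes reaching 1 FPKM in 3 or more libraries were tested with limma 3.58.1 in R 4.3.3 (intensity trend, pseudocount 1, Benjamini-Hochberg adjustment, threshold 0.05), after the code had been tested on simulated data. Transcripts were tested likewise. Alternatives covered pseudocount, filter, scaling, transcript choice, trend, replicate block, each left-out library, and GC content and length (both added after seeing the data).

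The members and lists were chosen with earlier results of these data known. All 43 members are named, with library values for those past the threshold and the most abundant of each role. From each list of other mitosis genes, up to 3 lowest and 3 highest genes past the threshold are named, and all genes listed as transcriptional regulators. Motifs were counted in RefSeq promoter windows of 300 bases.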

Additional observations from a re-analysis of the deposited data

How the results depend on the processing

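Of the 14 member calls, 10 held under all 17 alternatives, with Bub1, Cdc20, Ccnb1 and Kif20a as the exceptions described above, and no called member changed sign. The trimmed mean of M values gave 17 members lower, a member median of -0.15 and 1550 genes higher overall. The most abundant transcript per gene gave 999 genes lower and 997 higher. Leaving out single libraries gave 2 to 5 members higher, a member median between -0.0780 and -0.0476, 1 to 2 member transcripts lower and 0 to 1 higher. Over all tested genes 1285 to 1553 were then called lower and 1597 to 2225 higher. Member transcripts called lower and higher numbered 1 and 0 with no filter on low values, 13 and 0 with the trimmed mean of M values, and 5 and 2 with quantile normalization. Without the intensity trend 2 were lower. The cause of these shifts was not tested, although more transcripts enter the adjustment without a filter.

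Same-numbered libraries of the groups deviated with correlations of -0.00172, 0.05 and 0.06, and differently numbered ones with correlations between -0.07 and 0.03. The labels do not say whether same-numbered libraries share a culture or batch, and these correlations cannot decide it. With the replicate block 12 members were lower and 2 higher (Cdk1 joined and Bub1 left), and 0 member transcripts were called in either direction. Over all genes 58.3% of calls were higher with the replicate block.

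Sign changes occurred 31 times, in 13 members that passed neither way. With the trimmed mean of M values Ncapg stood at -0.0147, Cenpa at -0.0545, Anln at -0.0517 and Ttk at -0.0309. With quantile normalization Aurkb stood at 0.0249, Top2a at 0.0336, Tpx2 at 0.0505 and Cdca8 at 0.0238. After rescaling without mitochondrially encoded genes Tpx2 stood at 0.00145. With the most abundant transcript Spc25 stood at -0.0220, Aurkb at 0.0201, Racgap1 at 0.21, Tpx2 at 0.43, Smc2 at -0.0438 and Smc4 at 0.13. After removal of the GC trend Ncapg stood at -0.0643, Smc2 at -0.0303 and Ttk at -0.00763. After removal of the length trend Anln stood at -3.35e-06. Across left-out libraries Anln ranged from -0.0124 to 0.0591, Aurkb from -0.0743 to 0.00976, Cdca8 from -0.0616 to 0.0178, Cenpa from -0.0127 to 0.0435, Ncapg from -0.00697 to 0.11, Ndc80 from -0.0780 to 0.00777, Top2a from -0.0656 to 0.0212 and Tpx2 from -0.0369 to 0.0525.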
